A study of Mus musculus with 42 samples.

Results

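Messenger RNA of 6 steroid and thyroid hormone receptors was compared between hypothalamic nuclei and between feeding states. The genes were *Nr3c1* (glucocorticoid receptor), *Nr3c2* (mineralocorticoid receptor), *Esr1* (oestrogen receptor alpha), *Pgr* (progesterone receptor), *Thra* and *Thrb* (thyroid hormone receptors alpha and beta). They were chosen by name, as the rows whose Ensembl identifier carries one of these symbols, and are 6 of the 37907 genes in the table. All animals were adult male C57/BL6 mice of wild-type genotype. They were either fed ad libitum or had been without food for 24 hours. The arcuate nucleus (ARC), ventromedial hypothalamus (VMH), dorsomedial hypothalamus (DMH) and paraventricular nucleus (PVN) were cut out of frozen sections with a laser, and their RNA was amplified before sequencing. The ARC gave 5 fed and 5 fasted libraries, the VMH 6 and 6, the DMH 5 and 4, and the PVN 6 and 5. The study describes taking all 4 nuclei from each brain, and the labels do not say which libraries share a mouse, so tests between nuclei treat as separate some libraries that share an animal.

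These receptors are transcription factors that are switched by a hormone entering the cell. Glucocorticoid, mineralocorticoid, oestrogen and progesterone receptors bind DNA mainly as pairs of like molecules, while thyroid hormone receptors mostly pair with retinoid X receptors and repress their targets when hormone is absent. In the hypothalamus they carry feedback from the adrenal, the gonads and the thyroid. The PVN holds the neurons that release corticotropin- and thyrotropin-releasing hormone, and oestrogen and progesterone receptors are known in neurons of the mediobasal hypothalamus that control reproduction and energy balance.

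Expression is given in RPKM, a read number corrected for gene length and library size. Estimated depth was 1.33 to 13.2 M reads per library. It differed between fed (2.94 to 5.05 M) and fasted libraries (4.78 to 13.2 M) in the DMH (two-sided exact permutation p = 0.0476), where depth and state were thus partly confounded. Each dissected nucleus carried its markers. The summed RPKM of *Agrp*, *Npy* and *Pomc* was 836 to 2380 in ARC libraries and at most 56.6 elsewhere, and that of *Nr5a1*, *Fezf1* and *Adcyap1* was 136 to 256.4 in the VMH and at most 29.5 elsewhere. The sum of *Ppp1r17*, *Gpr50* and *Npvf* was 159 to 254.7 in the DMH and at most 70.7 elsewhere, and that of *Sim1*, *Oxt* and *Avp* was 4459 to 8501 in the PVN and at most 167 elsewhere. The cell content of the cuts differed too. The 5 neuronal markers (*Snap25*, *Syt1*, *Rbfox3*, *Tubb3*, *Stmn2*) summed to 560 to 616 RPKM in fed ARC and 1085 to 1255 in fed VMH libraries, and 5 oligodendrocyte markers to 62.2 to 97.4 and 185 to 294. Of these, 4 of 5 and 3 of 5 passed the test between fed nuclei. Most of the neuronal sum was *Snap25*, with means of 313.5 RPKM in fed ARC and 812.8 in fed VMH. In tissue samples of this kind, fewer cells of a type and less RNA per cell cannot be told apart.

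Every receptor was read in every library. *Thra* was the most abundant, with a mean of 44.2 RPKM over the 42 libraries, above 97.2% of all genes with deposited values. It was followed by *Nr3c1* (17.5 RPKM), *Thrb* (11.7), *Pgr* (8.02), *Nr3c2* (5.12) and *Esr1* (2.76). These levels are per kilobase, but the gene lengths the authors used were not checked for these genes. Estimated reads per library ran from 294 to 2936 for *Thra* and from 106 to 1247 for *Nr3c1*. *Esr1* had the fewest, with a median of 103 and a range of 14.1 to 898, so its values outside the ARC carried the largest counting error. Reads of other genes touched the receptors little. Exons of *Nr1d1* covered 5.7% of those of *Thra*, and *Gm10649* covered 3.82% of *Nr3c2*, while the exons of *Nr3c1*, *Esr1*, *Pgr* and *Thrb* overlapped no other gene.

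The start regions are shown of *Pgr* and *Thrb*, a steroid and a thyroid hormone receptor that both differed between nuclei. The sequences are from RefSeq on GRCm38.p6, plus strand, and were cut to bases that lie in no annotated exon. The *Pgr* window is chr9:8899583-8899832, directly upstream of the gene. The *Thrb* window is chr14:17660710-17660891, upstream of a RefSeq start and inside the gene as GENCODE draws it. Capitals mark AGGTCA, the core to which oestrogen and thyroid hormone receptors bind.
Pgr: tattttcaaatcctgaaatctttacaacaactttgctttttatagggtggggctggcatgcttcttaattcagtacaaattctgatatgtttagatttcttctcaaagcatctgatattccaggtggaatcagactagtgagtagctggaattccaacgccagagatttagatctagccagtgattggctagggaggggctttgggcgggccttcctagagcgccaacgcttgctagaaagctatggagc
Thrb: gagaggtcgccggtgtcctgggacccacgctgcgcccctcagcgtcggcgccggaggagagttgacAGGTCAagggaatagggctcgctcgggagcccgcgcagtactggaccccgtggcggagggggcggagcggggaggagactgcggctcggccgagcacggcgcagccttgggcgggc
Both strands were searched for AGGTCA, for the GGTCA it contains, and for GAACA, a core bound by glucocorticoid, mineralocorticoid and progesterone receptors. The *Pgr* window held 0 matches to each, where 35.2% of 32851 promoters held GGTCA, 14.0% AGGTCA and 36.2% GAACA in a window of the same length. The *Thrb* window held 1 AGGTCA (17660776 to 17660781), also its 1 GGTCA, and 0 GAACA, where 10.3%, 27.1% and 28.8% of promoters held these. A match is a description of the letters and not of a binding site.

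The first comparison asked how the receptors were spread over the nuclei. In fed mice 4 of the 6 receptors (*Nr3c1*, *Esr1*, *Pgr* and *Thrb*) passed the test over nuclei (adjusted p below 0.1), where 12.4% of the 33579 genes tested did. In fasted mice 5 of 6 did, the same 4 and *Nr3c2*, against 11.9% of genes. *Thra* passed in neither (adjusted p = 0.283 and 0.148). Pair by pair in fed mice, 3 receptors differed between ARC and VMH (7.9% of all genes), 3 between ARC and DMH (2.79%), 2 between ARC and PVN (4.13%), 1 between VMH and DMH (5.24%), 1 between VMH and PVN (9.84%) and 2 between DMH and PVN (3.42%). In fasted mice the counts were 3 for ARC and VMH (8.91% of all genes), 3 for ARC and DMH (3.21%), 4 for ARC and PVN (4.19%), 1 for VMH and DMH (3.94%), 1 for VMH and PVN (9.24%) and 1 for DMH and PVN (3.0%). Differences below are on the scale log2(RPKM + 1), which understates the change of low genes.

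**Figure D1:**
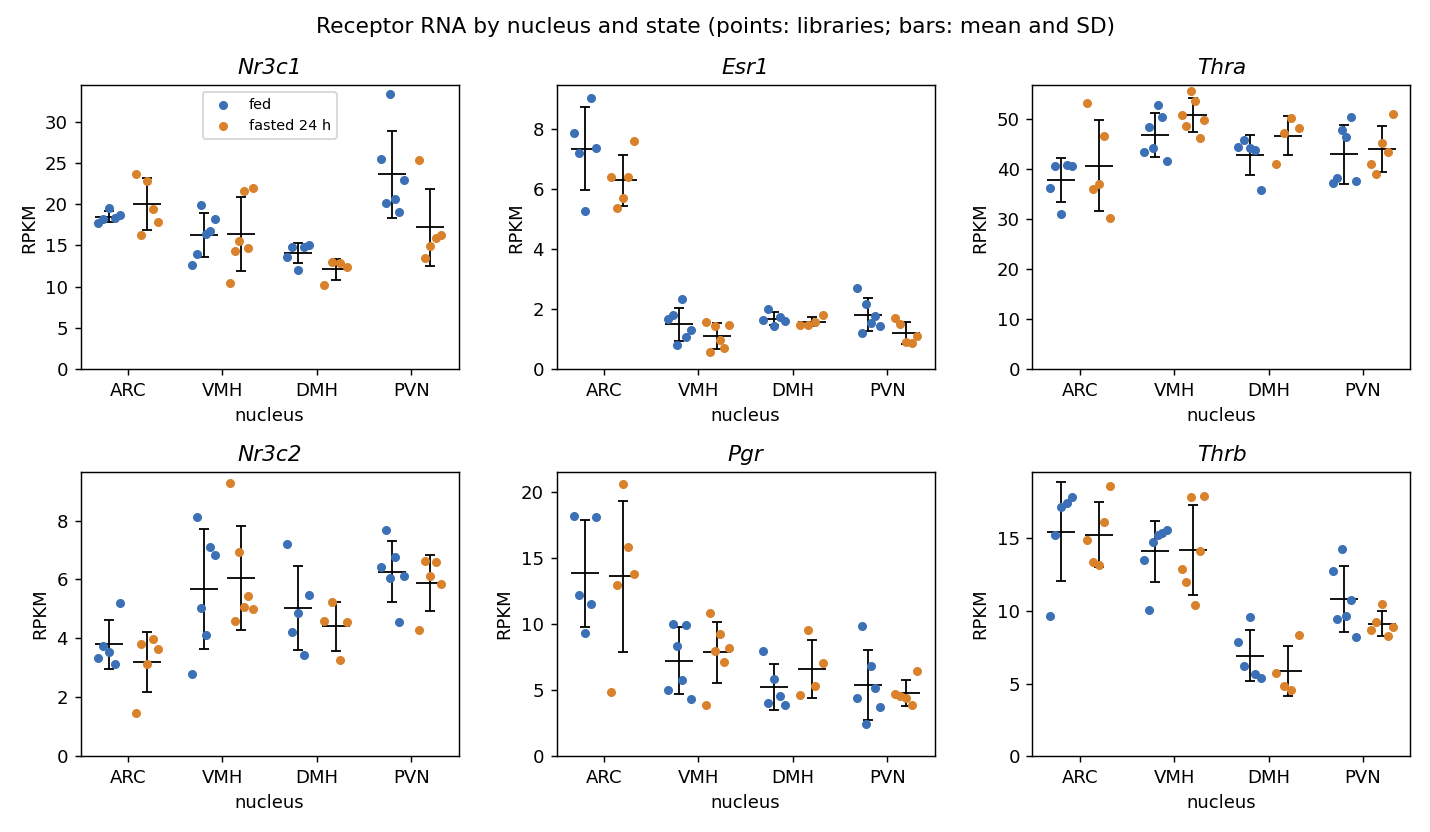
RPKM of each receptor (vertical axes) in the 4 nuclei, with 1 point per library, fed in blue and fasted in orange, and black bars for mean and SD. *Esr1* was at 5.27 to 9.03 RPKM in the ARC and at most 2.70 elsewhere, and *Thrb* was lowest in the DMH, while fed and fasted points overlap for every receptor in every nucleus.

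*Esr1* (ENSMUSG00000019768, GRCm38 chromosome 10, 4611593 to 5005614, plus strand), which mediates most central effects of oestradiol, was the receptor most restricted to a nucleus. In fed ARC its values were 7.86, 7.21, 5.27, 9.03 and 7.35 RPKM, and in fasted ARC 6.39, 5.37, 5.70, 6.41 and 7.58. Fed DMH libraries held 1.65, 2.02, 1.45, 1.73 and 1.62 RPKM, and the fed VMH ran from 0.819 through a median of 1.5 to 2.33. The fed PVN ran from 1.22 through 1.66 to 2.70. No library of the other nuclei reached the lowest ARC library. In fed mice the ARC stood above the VMH by 1.75 ± 0.145 (SE, adjusted p = 3.04e-11), above the DMH by 1.62 ± 0.151 (adjusted p = 2.46e-09) and above the PVN by 1.57 ± 0.145 (adjusted p = 6.46e-10). In separate fasted mice these differences were 1.80, 1.49 and 1.72, again with no overlap of libraries and with the same sign in every processing batch. Among VMH, DMH and PVN, fed means of 1.51 ± 0.546 (SD, n = 6), 1.69 ± 0.208 (n = 5) and 1.81 ± 0.547 (n = 6) did not differ past the threshold, with 95% intervals of -0.42 to 0.16 for VMH minus DMH and -0.34 to 0.25 for DMH minus PVN. The VMH libraries with these low *Esr1* values held *Nr5a1*, a VMH-defining gene, at 21.8 ± 10 RPKM (n = 6, range 7.29 to 38.5) in fed mice. Which parts of the VMH the cuts held, and the bearing of that on *Esr1*, was not tested.

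*Pgr* (ENSMUSG00000031870, chromosome 9, 8899833 to 8968611, plus strand), the receptor for progesterone and itself a gene that oestrogen induces, was also highest in the ARC but varied far more. Fed ARC values were 18.2, 12.2, 9.33, 11.5 and 18.1 RPKM, and fasted ones 4.84, 12.9, 20.6, 15.8 and 13.8. The fed DMH held 8.0, 4.0, 5.82, 4.56 and 3.88 RPKM and the fasted PVN 4.67, 4.53, 4.41, 3.87 and 6.42. One fasted ARC library thus sat at the level of the other nuclei, while the other 9 ARC libraries sat mostly above them. In fed mice the ARC exceeded the DMH by 1.24 ± 0.297 (SE, adjusted p = 0.0141) with no overlap, and the PVN by 1.27 ± 0.284 (adjusted p = 0.00463). In fasted mice it exceeded the PVN by 1.23 ± 0.297 (adjusted p = 0.0105), while its 0.86 above the DMH did not pass (adjusted p = 0.206, interval 0.22 to 1.5). The smaller step from ARC to VMH passed in fed mice (0.87, adjusted p = 0.0637) and not in fasted mice (0.65, adjusted p = 0.215). That fed call was lost without ARC-Fed library 1 or 5 or VMH-Fed library 1, 4 or 6, at 0.76 to 0.82 (adjusted p = 0.12 to 0.182), and with depth as a covariate (0.82, adjusted p = 0.116). Without ARC-Fast library 1 the span of *Pgr* over fasted nuclei stayed past the threshold, but without ARC-Fast library 3 it did not (1.06, adjusted p = 0.112). VMH, DMH and PVN did not differ from each other in *Pgr* past the threshold in either state.

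*Thrb* (ENSMUSG00000021779, chromosome 14, 17660261 to 18038090, plus strand), the thyroid hormone receptor that carries much of the feedback of thyroid hormone on the hypothalamus and pituitary, was highest in the ARC and VMH and lowest in the DMH. Fed ARC values were 9.63, 15.2, 17.1, 17.4 and 17.8 RPKM, and the fed VMH ran from 10 through a median of 15 to 15.6. The fed DMH held 7.82, 6.18, 9.54, 5.63 and 5.37 RPKM and the fasted DMH 5.73, 4.86, 4.56 and 8.36. The lowest ARC or VMH library thus lay above the highest DMH library of the same state. The PVN was between, with a fed mean of 10.8 ± 2.26 (SD, n = 6) and a fasted mean of 9.10 ± 0.852 (n = 5). ARC exceeded DMH by 1.05 ± 0.168 in fed (SE, adjusted p = 0.000126) and 1.26 ± 0.179 in fasted mice (adjusted p = 1.59e-05), and VMH exceeded DMH by 0.94 ± 0.161 (adjusted p = 0.000131) and 1.15 ± 0.172 (adjusted p = 2.18e-05). ARC and VMH, the top neighbours, did not differ past the threshold (0.11 in each state, intervals -0.22 to 0.44), although their neuronal markers differed as given above. The part of cell content in these levels was not tested.

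The place of the PVN between them was less firm. DMH was below PVN by 0.59 in fed mice (adjusted p = 0.0378) and 0.58 in fasted mice (adjusted p = 0.0887). The fed call was lost without DMH-Fed library 4 or 5 or PVN-Fed library 3, at -0.53 to -0.51 (adjusted p = 0.118 to 0.136). The fasted call was lost without any 1 of 9 libraries (DMH-Fast 1, 2 or 3, PVN-Fast 1 to 5, or PVN-Fed 5), at -0.61 to -0.49 (adjusted p = 0.1 to 0.239), with a pseudocount of 5 (adjusted p = 0.162) and when fasted libraries were fitted alone (adjusted p = 0.11). The fasted PVN was below the ARC by 0.68 (adjusted p = 0.0137) and the VMH by 0.57 (adjusted p = 0.0223), while in fed mice these steps of 0.46 and 0.36 did not pass (adjusted p = 0.143 and 0.197).

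*Thra* (ENSMUSG00000058756, chromosome 11, 98740638 to 98769006, plus strand), the more widely expressed thyroid hormone receptor, was nearly level. Group means ran only from 37.8 ± 4.33 RPKM in fed ARC (SD, n = 5) to 50.7 ± 3.37 in fasted VMH (n = 6). Fed ARC libraries were at 36.2, 40.6, 30.9, 40.9 and 40.5 RPKM, all below the lowest fed VMH library at 41.6. The ARC was below the VMH by 0.30 ± 0.105 in fed (SE, adjusted p = 0.0884) and 0.34 ± 0.105 in fasted mice (adjusted p = 0.0408), the only pair past the threshold. Both are small and rest on few libraries. The fed call was lost without ARC-Fed library 1 or 3 or VMH-Fed library 2, 4 or 5 (-0.29 to -0.23, adjusted p = 0.137 to 0.283). It was also lost with batch as a covariate (adjusted p = 0.106), quantile normalization (0.147) and array weights (0.187). The fasted call was lost without ARC-Fast library 2, 3 or 5 (-0.31 to -0.24, adjusted p = 0.103 to 0.193), and its sign differed in 1 of the 3 batches (range -0.56 to 0.09). The sum of the neuronal markers was lower in the ARC than in the VMH by a larger factor, but the markers differed among themselves. Most of the sum was *Snap25*, with fed means of 313.5 RPKM in the ARC and 812.8 in the VMH. *Syt1* was at 46.6 and 70.85, *Rbfox3* at 12.51 and 31.52, and *Stmn2* at 139.6 and 184.1. *Tubb3* was nearly level in fed mice, at 77.2 RPKM in the ARC and 81.4 in the VMH. The part of neuronal content in the step of *Thra* was not tested.

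Because *Thra* was level and *Thrb* was not, the balance of both receptors within a library differed by nucleus. *Thra* over *Thrb* had a median of 2.35 in fed ARC, 3.25 in fed VMH, 4.31 in fed PVN and 6.69 in fed DMH. In fasted mice the medians were 2.82, 3.61, 4.73 and 8.43, the same order. In fed DMH the ratio ran from 4.63 to 7.79 and in fed ARC from 1.81 to 3.76, with no shared value. The fed VMH reached 4.813 and the fed PVN 4.805, so both overlapped the fed DMH. The ratio was not tested.

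**Figure D2:**
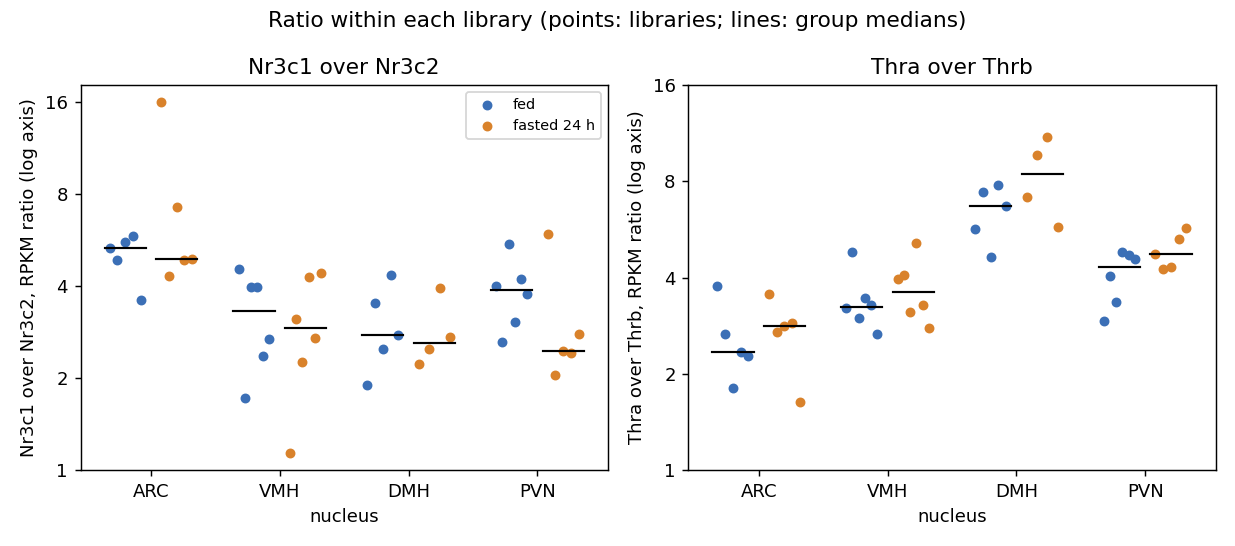
RPKM ratio of *Nr3c1* over *Nr3c2* (left) and *Thra* over *Thrb* (right) within each library, on log axes, by nucleus, with fed points in blue, fasted in orange and black lines at group medians. The thyroid receptor ratio was highest in the DMH, with medians of 6.69 fed and 8.43 fasted, while the corticosteroid receptor ratio was highest in the ARC, with medians of 5.31 and 4.89.

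*Nr3c1* (ENSMUSG00000024431, chromosome 18, 39410545 to 39519421, minus strand), the receptor through which corticosterone acts at stress levels, was highest in the PVN of fed mice and lowest in the DMH. The fed PVN ran from 19.1 through a median of 21.8 to 33.3 RPKM, and fed DMH libraries held 13.6, 14.8, 12.1, 14.9 and 15.1. The highest DMH library was below the lowest PVN library. Fed ARC libraries were tightly grouped at 17.7, 18.2, 19.6, 18.3 and 18.7 RPKM. DMH was below PVN by 0.68 ± 0.151 (SE, adjusted p = 0.00539) and VMH below PVN by 0.50 ± 0.144 (adjusted p = 0.0231), and each sign held in all 3 batches. The neighbours PVN and ARC (interval for ARC minus PVN -0.62 to -0.01, adjusted p = 0.422), ARC and VMH (0.19, adjusted p = 0.682), and VMH and DMH (0.19, adjusted p = 0.727) did not differ past the threshold.

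In fasted mice the order was different, with means of 20 ± 3.13 RPKM in ARC (SD, n = 5), 17.2 ± 4.67 in PVN (n = 5), 16.4 ± 4.48 in VMH (n = 6) and 12.1 ± 1.29 in DMH (n = 4). Only the step from ARC to DMH passed (0.67 ± 0.167, adjusted p = 0.0202). Fasted ARC libraries were at 23.6, 16.3, 22.8, 19.4 and 17.9 RPKM and fasted DMH libraries at 10.2, 12.9, 12.9 and 12.4, with no overlap. That call was lost when fasted libraries were fitted alone (adjusted p = 0.124), and the test over all fasted nuclei was lost without DMH-Fast library 1 (adjusted p = 0.139). Whether the change of order itself exceeded the spread was tested with the interaction given below, which did not pass.

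*Nr3c2* (ENSMUSG00000031618, chromosome 8, 76899442 to 77245012, plus strand), which binds aldosterone and, with high affinity, corticosterone, was lowest in the ARC. Its fed means were 3.79 ± 0.821 RPKM in ARC (SD, n = 5), 5.04 ± 1.43 in DMH (n = 5), 5.66 ± 2.03 in VMH (n = 6) and 6.26 ± 1.03 in PVN (n = 6), and the test over fed nuclei did not pass (adjusted p = 0.198). Fasted ARC libraries were at 1.48, 3.80, 3.14, 3.99 and 3.65 RPKM and fasted PVN libraries at 4.27, 6.62, 6.10, 6.58 and 5.83. In fasted mice the ARC was below the PVN by 0.74 ± 0.205 (SE, adjusted p = 0.0353) and below the VMH by 0.75 ± 0.196 (adjusted p = 0.0111), with no overlap of libraries in either pair. ARC-Fast library 1 was the lowest of all libraries for *Nr3c2*. Without it ARC minus PVN was -0.56 and no longer passed (adjusted p = 0.183), nor did the test over fasted nuclei (adjusted p = 0.125).

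*Nr3c1* exceeded *Nr3c2* in every library. The ratio had a median of 5.31 in fed ARC, 3.87 in fed PVN, 3.31 in fed VMH and 2.77 in fed DMH. Fed ARC (3.589 to 5.823) and fed PVN (2.621 to 5.487) overlapped, and the ratio was not tested. The fasted medians were 4.89, 2.44, 2.90 and 2.60, with a highest value of 15.9 in ARC-Fast library 1.

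The fed and fasted libraries come from different mice, so each pattern over nuclei was measured in independent animals. Of the 36 differences between pairs of nuclei (6 receptors, 6 pairs), 12 passed in fed and 13 in fasted mice, and 8 passed in both. The 17 that passed in either state had the same sign in the other. Batch means had been removed from the values, although batches were spread unevenly over the groups. Batch 1 held 0 fasted DMH and 2 fed PVN libraries. Of the 25 calls, 24 had one sign in every batch that held both nuclei, the exception being *Thra* in fasted ARC and VMH. The batches are parts of the libraries that gave the calls. Signs within batches, here and above, are thus a description and not a separate check.

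**Figure D3:**
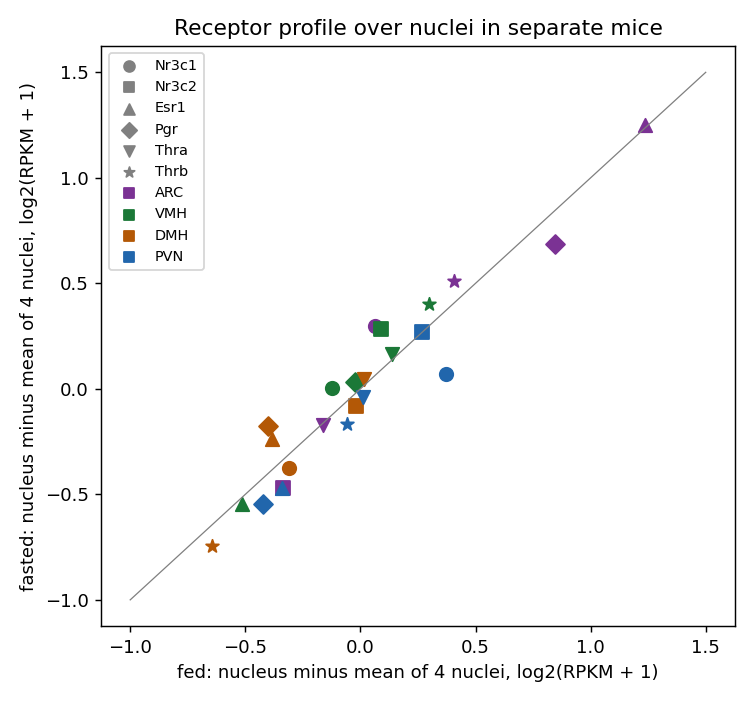
Level of each receptor in a nucleus minus its mean over the 4 nuclei, in log2(RPKM + 1), in fed mice (horizontal) and fasted mice (vertical). Marker shapes are receptors, colours are nuclei, and the grey line marks equal values. *Esr1* in the ARC lies at the top right and *Thrb* in the DMH at the bottom left, and *Nr3c1* in the PVN lies below the line (fed mean of 23.6 and fasted mean of 17.2 RPKM).

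The next comparison asked whether 24 hours without food changed the receptors within a nucleus. None of the 6 passed the threshold of limma in any nucleus, where few genes did. Genes that rose were 0.0387% of all in ARC, 0.0715% in VMH, 0.0238% in DMH and 0.0536% in PVN, and those that fell were 0.0179%, 0.0596%, 0.0% and 0.0179%. Unadjusted p-values below 0.05 were found for 2517 (ARC), 2455 (VMH), 2175 (DMH) and 1857 genes (PVN), and among the receptors only for *Nr3c1* and *Esr1* in the PVN. The effect of fasting did not differ between nuclei for any receptor either (interaction, adjusted p = 1.0 for each), where 0.00596% of genes passed and 1475 had an unadjusted p under 0.05.

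**Figure D4:**
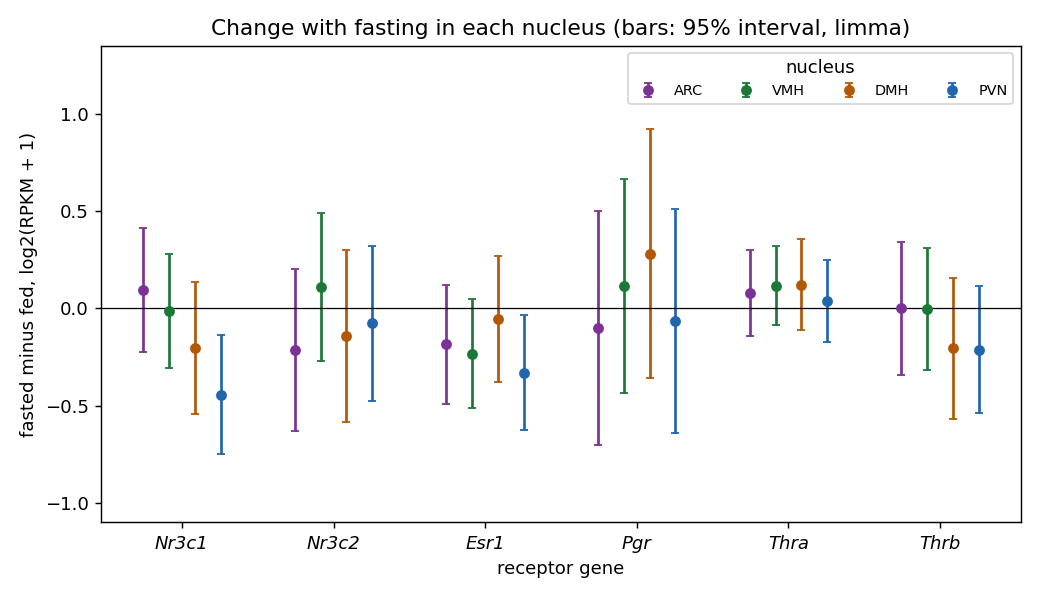
Fasted minus fed difference of each receptor in log2(RPKM + 1), with 95% intervals from limma, coloured by nucleus. Of the 24 intervals, those of *Nr3c1* and *Esr1* in the PVN exclude 0, at -0.75 to -0.14 and -0.62 to -0.04 before adjustment for the number of genes.

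The differences with the smallest p were those of *Nr3c1* and *Esr1* in the PVN. Fasted libraries of *Nr3c1* were at 25.3, 13.5, 14.9, 15.9 and 16.3 RPKM, against 19.1 to 33.3 in the 6 fed libraries. Of the fasted libraries, 4 of 5 were below every fed library, and 1 (PVN-Fast library 1) was among the highest fed ones. The summed markers of the DMH, where *Nr3c1* was lowest, were at 14.2 to 31.4 RPKM in fed and 37.0 to 70.7 in fasted PVN. Of these, 1 of 3 passed the threshold (*Ppp1r17*, 1.29, adjusted p = 0.0345), with means of 18.9 RPKM fed and 47.3 fasted. *Gpr50* (1.17 fed and 1.25 fasted) and *Npvf* (1.82 and 1.43) did not pass. The part of DMH tissue in the fasted PVN values was not tested. The difference of *Nr3c1* was -0.44 ± 0.151 (SE, adjusted p = 0.627, two-sided exact permutation p = 0.039), the only exact p under 0.05 among the 24 fasting tests. Within batches it was 0.15 in batch 1, which held 1 fasted library, -0.84 in batch 2 and -0.36 in batch 3. Without PVN-Fast library 1 it was -0.59 and still did not pass (adjusted p = 0.25). *Esr1* in the PVN had fasted values of 1.7, 1.52, 0.924, 0.869 and 1.13 RPKM against a fed range of 1.22 to 2.70, a difference of -0.33 ± 0.145 (adjusted p = 0.869, exact permutation p = 0.0563). With a pseudocount of 0.1 it was -0.52, and that of *Nr3c1* -0.46.

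The other intervals show what changes the data could resolve. For *Thra* they were narrow, at -0.14 to 0.30 (ARC), -0.09 to 0.32 (VMH), -0.11 to 0.36 (DMH) and -0.17 to 0.25 (PVN). *Thrb* was at -0.34 to 0.34 in the ARC and -0.54 to 0.12 in the PVN, and *Esr1* in the ARC at -0.49 to 0.12. *Pgr* was poorly resolved, with intervals of -0.70 to 0.50 in the ARC and -0.36 to 0.92 in the DMH, where depth also differed between states. *Nr3c2* lay between, at -0.63 to 0.20 in the ARC and -0.27 to 0.49 in the VMH.

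Genes that work with these receptors were read from 7 lists. Among 10 genes of corticosteroid handling and the receptor complex, which include the chaperones that hold the glucocorticoid receptor ready for hormone, 1 fell with fasting in both ARC and PVN, 0 in VMH and DMH, and none rose. It was *Hsp90aa1* (chromosome 12, 110690605 to 110702728), a stress-inducible HSP90 chaperone. It went from 212 ± 20.7 to 161 ± 22.9 RPKM in the ARC (SD, n = 5 and 5, log2 difference -0.41, adjusted p = 0.0361) and from 187 ± 14.1 to 134 ± 8.75 RPKM in the PVN (n = 6 and 5, -0.47, adjusted p = 0.00166). The ARC call was lost without ARC-Fast library 1 or ARC-Fed library 1 or 2, and both calls were lost in fits of a single nucleus. Its level is uncertain, since 47.5% of its 50-base stretches recur in 4 other annotated genes. The list's medians were -0.116, -0.0587, -0.129 and -0.0514 in the ARC, VMH, DMH and PVN, with 0.0 for all genes. *Crh*, corticotropin-releasing hormone, was at 19.8 ± 3.03 RPKM in fed and 22.3 ± 2.49 in fasted PVN and did not pass with fasting (0.17, adjusted p = 1.0).

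Some genes that glucocorticoids are known to induce were higher in fasted mice. Of 16 listed, 2 (ARC), 4 (VMH), 2 (DMH) and 2 (PVN) rose, and 0 fell, against 0.0387%, 0.0715%, 0.0238% and 0.0536% of all genes that rose. The others did not pass. Fitted differences were above 0 for 15, 13, 15 and 16 of the 16, with medians of 0.56, 0.463, 0.659 and 0.706. The list was chosen with earlier results of these data known, so its counts and medians are a description and not a test of the list. *Cdkn1a*, an inhibitor of the cell cycle, went from 4.15 ± 2.75 to 17 ± 4.78 RPKM in the ARC (adjusted p = 0.0613), from 3.99 ± 3.51 to 12.1 ± 6.85 in the VMH (adjusted p = 0.0897) and from 6.48 ± 1.60 to 27.3 ± 14.0 in the PVN (adjusted p = 0.0573). *Hif3a*, a hypoxia-inducible factor subunit, went from 0.859 ± 0.32 to 3.96 ± 0.959 RPKM in the PVN (adjusted p = 0.0374) and from 1.41 ± 0.857 to 4.51 ± 2.30 in the VMH (adjusted p = 0.0974). *Mt1*, a metal-binding metallothionein, rose in the DMH from 74.8 ± 14.4 to 174 ± 14.7 RPKM (adjusted p = 0.00136), and *Plin4*, a lipid droplet protein, in the VMH from 0.647 ± 0.182 to 2.89 ± 1.66 (adjusted p = 0.0555). *Mt2* rose in the ARC, VMH and DMH by 1.09, 1.10 and 1.40 (adjusted p = 0.0845, 0.0476 and 0.0174), but 73.5% of its exons overlap *Gm45774*, so its level is uncertain. In the VMH 1 of 5 astrocyte markers fell with fasting (*Aqp4*, -0.94, adjusted p = 0.0477). The others did not pass, at -0.10 (*Gja1*), -0.08 (*Slc1a3*), -0.32 (*Gfap*) and 0.39 (*Aldh1l1*). Their sums were 84.1 to 122 RPKM in fed and 68.7 to 97.9 in fasted libraries, and the part of astrocyte content in the list's values was not tested. The level of *Cdkn1a* is uncertain to a smaller extent, with 8.49% of its stretches shared with other genes.

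*Fkbp5*, which is on both lists and whose product restrains the glucocorticoid receptor, did not pass, with a difference of 1.13 in ARC (adjusted p = 0.29) and 1.30 for PVN (adjusted p = 0.14). None of these changes measures the activity of the receptor, and these genes answer to other signals too. Several calls rest on few libraries. When 1 library at a time was left out, the call of *Cdkn1a* was lost in 6 of 42 fits for ARC, 18 for VMH and 7 for PVN, that of *Hif3a* in 33 for VMH and 3 for PVN, that of *Plin4* in 5, and that of *Mt2* in 26 for ARC. Those of *Mt1* in the DMH and *Mt2* in the VMH and DMH were lost in 0 of 42. In the DMH, *Mt1* and *Mt2* were both lost when its libraries were fitted alone (adjusted p = 0.207 and 0.415). The fasted DMH libraries were also the deeper ones. With depth as a covariate *Mt1* and *Mt2* still passed there, but depth and state were partly confounded, so that fit cannot fully separate them.

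**Figure D5:**
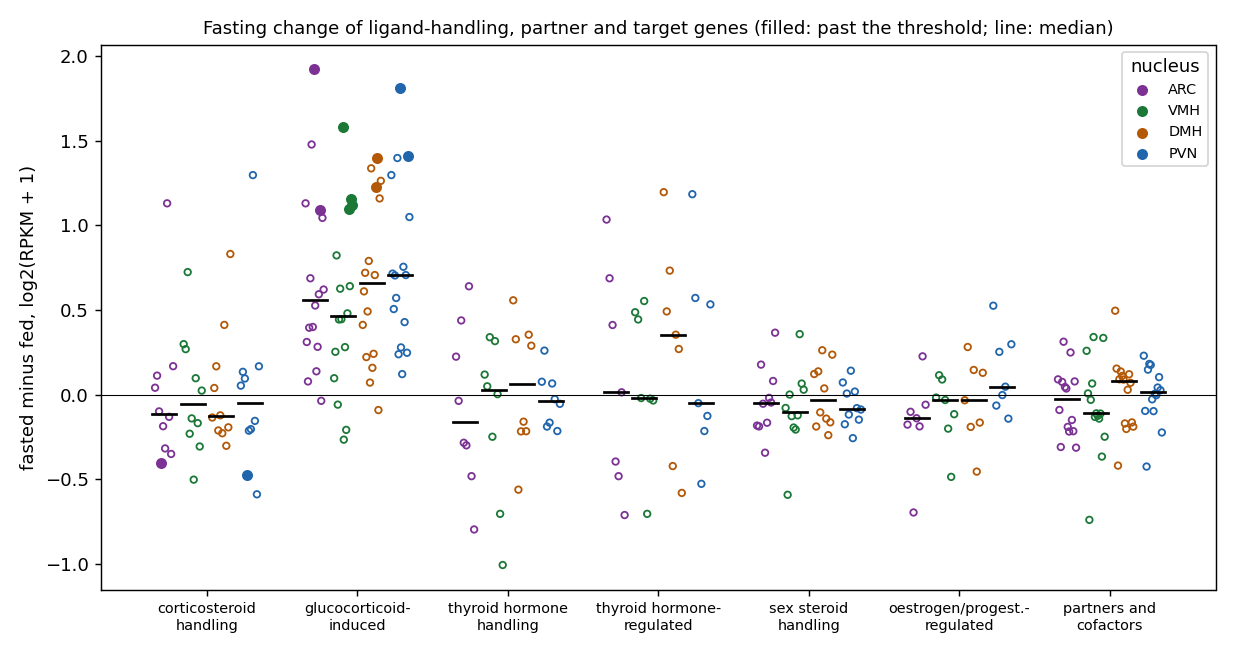
Fasted minus fed difference in log2(RPKM + 1) for each gene of the 7 lists, coloured by nucleus, with filled points for genes past the threshold, open points for the others and black lines at the medians. The glucocorticoid-induced list has medians of 0.56, 0.463, 0.659 and 0.706 in the ARC, VMH, DMH and PVN, while the medians of the corticosteroid, thyroid and sex steroid handling lists lie between -0.161 and 0.0644 and that of the thyroid hormone-regulated list in the DMH is 0.354.

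Among the other lists no gene passed with fasting. Of 8 tested genes for handling thyroid hormone (transporters, deiodinases and releasing hormone), of 7 genes that thyroid hormone regulates, of 10 for sex steroid handling and related receptors, of 7 that oestrogen or progesterone regulate (*Pgr* itself among them) and of 14 dimer partners and cofactors, 0 passed in any nucleus. The medians of the thyroid hormone-regulated list were 0.0133, -0.0206, 0.354 and -0.0508 in the ARC, VMH, DMH and PVN. *Dio1* and *Dio3* were below the filter on low values, and *Kiss1* was not analysed here. *Trhr*, the receptor for thyrotropin-releasing hormone, came nearest, at 7.30 ± 4.30 RPKM in fed and 2.78 ± 0.68 in fasted VMH (adjusted p = 0.103), and *Hr*, a thyroid hormone-responsive corepressor, was at 1.21 ± 0.306 in fed and 4.09 ± 1.16 in fasted PVN (adjusted p = 0.267). Both are named after their values were seen.

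Between nuclei, where 12.4% of all genes passed in fed and 11.9% in fasted mice, the lists differed in how many members passed. In fed and fasted mice, the number past the threshold was 6 and 4 of 10 for corticosteroid handling, 6 and 5 of 8 for thyroid hormone handling, 2 and 3 of 10 for sex steroid handling, 5 and 4 of 14 for partners and cofactors, 4 and 8 of 16 for glucocorticoid-induced genes, 4 and 3 of 7 for thyroid hormone-regulated genes and 6 and 7 of 7 for oestrogen- and progesterone-regulated genes. The last list includes *Pgr*, already counted among the receptors, and the lists share some genes. They were chosen with earlier results of these data known, so the counts are a description. The genes named in the rest of this paragraph were picked after their values were seen. Their adjusted p-values are from the test over all fed nuclei and not from the pair of nuclei named. *Esr2*, oestrogen receptor beta, was highest in the PVN, at 3.36 ± 1.66 fed and 3.10 ± 0.507 fasted, against group means of 0.906 to 1.32 elsewhere (adjusted p = 0.00176). *Esr1* and *Pgr* were highest in the ARC instead. *Dio2*, the deiodinase that makes active thyroid hormone, was at 6.56 ± 1.76 RPKM in fed ARC and 0.585 ± 0.259 in fed PVN (adjusted p = 2.74e-07), and *Trh* at 128 ± 56.4 in fed PVN and 7.13 ± 7.15 in fed VMH (adjusted p = 2.41e-11). *Rxra*, a partner of thyroid hormone receptors, was at 12.2 ± 2.76 in fed PVN and 7.14 ± 1.22 in fed ARC (adjusted p = 0.00809).

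For each receptor, genes among the 3 with the most similar pattern over the 42 libraries were found by Pearson's r in log2(RPKM + 1), among about 13750 genes of at least 5 RPKM on average. The libraries share nucleus, amplification and depth, so r is a description only. *Esr1* was most like *Irs4* (r = 0.942), *Crabp1* (0.936) and *Tbx3* (0.927), all high in the ARC. *Pgr* was most like *Pomc* (0.723), *Pcdh20* (0.705) and *Cited1* (0.701), and *Thrb* was like *Syt5* (0.754) and *Kctd4* (0.727). *Nr3c1* had *Hsp90ab1* (0.662), a constitutive HSP90 chaperone of the list above, *Dnah1* (0.643) and *Pdia3* (0.626). *Nr3c2* had *Cntnap5b* (0.708), *Tmeff1* (0.687) and *Prr16* (0.68). *Thra* had *Gm12744* (0.686), whose exons lie wholly within those of another gene so that its level is uncertain, *Gal3st3* (0.673) and *Vamp1* (0.656). Among the receptors, *Esr1* and *Pgr* had r = 0.561 and *Esr1* and *Nr3c2* r = -0.579, the first both high and the second opposite in the ARC, and *Thra* and *Thrb* r = -0.0442.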

How the data were processed

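RNA-seq libraries from 4 laser-captured nuclei of fed and fasted mice were analysed. Reads were single-end and unstranded. Per the labels the submitters used CASAVA 1.7, TopHat2 2.0.11 and Cufflinks 2.2.1 with GRCm38, and edgeR and limma. The values the authors deposited are RPKM, for 37907 genes and 42 libraries. The table shows that reads were added in proportion to depth (5 in the mean library) and batch means removed, for 3 batches read from recurring lowest values (10 to 16 libraries), and depth was estimated from these values and exon lengths. The authors fitted counts with edgeR. For RPKM, limma 3.58.1 (R 4.3.3) on log2(RPKM + 1) was used, with 8 group means and an intensity trend. The 33579 genes with at least 1 RPKM in at least 4 libraries were tested, two-sided, with Benjamini-Hochberg adjustment, and an adjusted p under 0.1 passed the threshold. Exact permutation tests enumerated all regroupings and doubled the smaller tail. The fit was tested on simulated data. Symbols, positions and exons came from GENCODE M21 (36049 genes with a symbol).

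The receptors and lists were chosen with earlier results of these data known. The rule named every receptor, each list gene past the threshold with fasting, nucleus markers, and the 3 most similar genes with at least 5 RPKM. Alternatives were pseudocounts of 0.1 and 5, no filter or at least 5 RPKM, other scalings, weights and eBayes settings, fewer libraries in the fit, depth, batch and replicate number as covariates, and each library left out. Applying them to the lists was decided after the values were seen. The study describes the replicates of a group as biological, and the labels name no mouse. No 2 libraries were identical (highest r 0.981). Some results are not reported here.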

Additional observations from a re-analysis of the deposited data

Results flagged for a closer look

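Of 48 sets of libraries (6 receptors in 8 groups), 3 held a library whose distance from the rest exceeded Dixon's 95% critical value, where chance gives about 1 in 20. The paper describes leaving out outlier samples by their overall profiles, so these sets may already have been trimmed. *Nr3c1* in PVN-Fast library 1 was at 25.3 RPKM, against 13.5 to 16.3 in the other 4 (estimated depth 2.95 M reads, batch 1). Without it the fasting difference of *Nr3c1* in the PVN went from -0.44 to -0.59, with an adjusted p of 0.25. *Thra* in DMH-Fed library 5 was at 35.9 RPKM, against 43.8 to 45.7 (2.94 M reads, batch 3). Without it the fasting difference of *Thra* in the DMH went from 0.12 to 0.06. *Thrb* in VMH-Fed library 2 was at 10.04 RPKM, against 13.5 to 15.6 (3.08 M reads, batch 1). Without it the fasting difference of *Thrb* in the VMH was -0.09 in place of -0.00, and fed VMH stood above DMH by 1.03 in place of 0.94. None of these changed a call for that receptor.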

How the results depend on the processing

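The number of receptors past the threshold with fasting was 0 in each nucleus under all 12 alternatives and without each of the 42 libraries, as was that of the interaction (11 alternatives, since single-nucleus fits have none). Between fed nuclei it was 4 to 5 and between fasted nuclei 4 to 6. Small fasting differences changed sign. With array weights these were *Pgr* in the ARC (0.0297), *Thrb* in the ARC (-0.00739), *Nr3c1* and *Thrb* in the VMH (0.0195 and 0.0179) and *Nr3c2* in the PVN (0.00223). *Thrb* in the ARC also did so with a pseudocount of 5 (-0.00337), equal library medians (-0.00992) and depth as a covariate (-0.0296), and *Thrb* in the VMH with quantile normalization (0.00926). With a library left out, ranges that crossed 0 were, in the ARC, *Pgr* -0.274 to 0.198, *Thra* -0.0217 to 0.175 and *Thrb* -0.149 to 0.0569. In the VMH they were *Nr3c1* -0.1001 to 0.0986, *Nr3c2* -0.0409 to 0.214 and *Thrb* -0.0899 to 0.0742, and in the PVN *Nr3c2* -0.153 to 0.0155, *Pgr* -0.227 to 0.107 and *Thra* -0.0155 to 0.0858. The count of list genes past the threshold with fasting (3, 4, 2 and 3 in the ARC, VMH, DMH and PVN) fell to 0, 1, 0 and 1 in fits restricted to 1 nucleus, with fewer samples. It was 1 in the ARC with a pseudocount of 0.1, 2 in the VMH with a pseudocount of 5, array weights, batch as a covariate or the replicate block, and 11 in the PVN with array weights. With a library left out it was 0 to 3, 1 to 5, 2 to 5 and 1 to 4. Where no value is given for a change, the cause was not tested. Replicate numbers did not pair fed and fasted libraries (20 pairs, r -0.121 to 0.0544), and with the replicate block 4 receptors passed between fed and 5 between fasted nuclei, with 0 for fasting, while *Pgr* between fed ARC and VMH (adjusted p = 0.102) and *Thrb* between fasted DMH and PVN (adjusted p = 0.118) were lost. *Nr3c2* passed between fed nuclei with array weights (adjusted p = 0.0938) and without VMH-Fed library 1 (0.0707), and *Thra* between fasted nuclei with array weights (0.0797), a filter of 5 RPKM (0.0988), and without ARC-Fast library 1 (0.0191) or 4 (0.0871). Depth limited *Esr1* most, with as few as 14.1 estimated reads.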
